A study of Mus musculus with 2 samples.

Results

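Neutrophils of the mosaic tumours were picked out of 2 single-cell libraries by their transcripts, and 388 of the 11552 cells that passed the quality filter met the gate. The cells were chosen by measured transcripts of the libraries described here: a cell was kept as a neutrophil when S100a8 and S100a9 together made up at least 0.5% of its gene UMIs, when it held at least 1 UMI of Csf3r, no UMI of Cd3e or Ncr1, and less than 0.2% C1qa, C1qb and C1qc. UMIs are unique molecular identifiers, each of which stands for 1 captured mRNA molecule. Replicate 1 supplied 352 neutrophils of 4818 filtered cells, a share of 7.31% (exact binomial 95% interval 6.59% to 8.08%), and replicate 3 supplied 36 of 6734, a share of 0.535% (0.375% to 0.739%).

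Both libraries came from the single group of the study, subcutaneous mosaic squamous cell carcinomas in FVB mice. Each tumour grew from a coinjection of the carcinoma lines CIT6 (YFP) and CIT9 (RFP), which had been established in culture from resected carcinomas, and no treatment is recorded. CD45+ immune cells were sorted after short oligonucleotide codes had been printed with light onto regions of the tumour section (ZipSeq), so that each cell carries counts of up to 3 spatial codes beside its mRNA. The labels do not say which code marked which region, nor whether the tumours came from different animals, and with 1 group no condition could be compared.

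Neutrophils are short-lived granulocytes that leave the bone marrow, follow CXC chemokines through the receptor Cxcr2, and carry antimicrobial proteins in granules that are made before the cell matures. Their cytosol is rich in the calcium-binding proteins S100a8 and S100a9, and Csf3r is the receptor for G-CSF, the growth factor that sustains them. In tumours they are known both as sources of inflammatory cytokines and as cells that can restrain T cells.

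Taken as a sum, neutrophil markers that the gate did not use were above their macrophage level in both tumours. The 8 such markers summed to 12646 CPM (UMI counts scaled to the same total in every class and tumour) in replicate 1 neutrophils and 7630.2 CPM in replicate 3 neutrophils, against 141 and 66.7 CPM in macrophages of the same tumours. With the 3 gate genes, which set most of it, the sum of all 11 was 146813 and 61320 CPM in neutrophils. Of those markers, Ly6g had no UMI in replicate 3 neutrophils. Among the other lineages, the T cell list summed to 48.2 and 158 CPM, the NK list to 0.846 and 15 CPM and the B cell list to 49.9 and 0 CPM, and the eosinophil list of 5 to 18.6 and 52.7 CPM in neutrophils, against 1.06 and 0.534 CPM in macrophages. Within the eosinophil list Epx, Prg2 and Il5ra had no UMI in neutrophils of either tumour, and the sum came from Siglecf and Ccr3. The 9 macrophage markers, C1q included, summed to 3768 and 3168 CPM in neutrophils, against 49785 and 38782 CPM in macrophages.

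Neutrophils held little RNA: their median was 2610 gene UMIs (range 1084 to 29639) in replicate 1 and 2701 (1872 to 19721) in replicate 3, against medians of 19151 and 24331 in macrophages. Summed over cells, neutrophils gave 1181677 and 132893 UMIs, so every replicate 3 value rests on 36 cells and has the wider counting error. Cells with over 10000 UMIs numbered 11 in replicate 1 and 2 in replicate 3 and supplied 17.2% and 29.3% of all neutrophil UMIs. Csf1r, a monocyte and macrophage receptor, was detected in 9 of those 11 and 2 of those 2, and the part of doublets in these cells was not tested. Among all neutrophils, 99 of 352 and 12 of 36 held a Csf1r or Ly6c2 UMI and supplied 40.8% and 51.0% of neutrophil UMIs. The part of other cells in those UMIs was not tested either. No doublet caller was run, and 9 filtered barcodes, none of them a neutrophil, occurred in both libraries. Barcodes with under 50 UMIs, which mostly hold free RNA, contained 0.240% S100a8 plus S100a9 in replicate 1 and 0.00845% in replicate 3, both under the gate.

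The gate values are a description, since the cells were selected on them. S100a8 plus S100a9 took a median of 11.6% (0.540% to 41.1%) of a cell's UMIs in replicate 1 and 4.82% (0.738% to 26.6%) in replicate 3, and a cell held a median of 4 and 5 Csf3r UMIs. At the edge of the gate, 11 and 4 neutrophils lay between 0.5% and 1.0%, and 3 and 1 otherwise matching cells lay just outside, between 0.3% and 0.5%. A larger set, 66 cells in replicate 1 and 1 in replicate 3, missed the gate only for lack of a Csf3r UMI.

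The start regions of 3 genes that mark these cells are shown because their transcripts set neutrophils apart. The windows, from RefSeq on GRCm38.p6, run from 250 bases before to 50 bases after the transcript start, 5′ to 3′ on the gene's strand, and all 5 genes looked up were matched. They lie at chr3:90668821-90669120 (plus strand) for S100a8, chr3:90695672-90695971 (minus strand) for S100a9 and chr16:48872358-48872657 (plus strand) for Retnlg. Capitals mark a match, on either strand, to the C/EBP motif TTGCNNAA (S100a9, Retnlg) or the PU.1 motif GAGGAAG (S100a8), both recognised by factors of the myeloid lineage. Of all 32851 windows of this kind, 10.8% held the C/EBP letters and 13.6% the PU.1 letters, so a match describes the sequence and is not a site.
S100a8: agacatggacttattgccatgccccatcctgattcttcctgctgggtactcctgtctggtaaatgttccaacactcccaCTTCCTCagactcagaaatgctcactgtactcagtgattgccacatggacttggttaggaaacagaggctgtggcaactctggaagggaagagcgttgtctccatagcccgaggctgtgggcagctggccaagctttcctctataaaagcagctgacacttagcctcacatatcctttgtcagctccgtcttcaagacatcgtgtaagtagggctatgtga
S100a9: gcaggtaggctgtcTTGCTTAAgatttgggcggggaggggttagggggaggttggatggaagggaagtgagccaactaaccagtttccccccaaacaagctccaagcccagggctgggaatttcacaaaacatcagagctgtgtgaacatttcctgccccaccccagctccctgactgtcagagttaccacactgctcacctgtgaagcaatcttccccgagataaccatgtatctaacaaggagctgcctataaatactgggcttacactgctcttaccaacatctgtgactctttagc
Retnlg: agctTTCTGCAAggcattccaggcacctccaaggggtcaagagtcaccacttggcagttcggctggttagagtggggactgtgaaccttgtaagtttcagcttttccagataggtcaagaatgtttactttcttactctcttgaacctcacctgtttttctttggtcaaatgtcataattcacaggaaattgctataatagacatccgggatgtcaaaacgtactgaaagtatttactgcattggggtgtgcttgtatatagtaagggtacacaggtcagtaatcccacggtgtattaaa

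What distinguishes neutrophils was measured against macrophages, the most numerous class, gated on C1q (2645 and 2879 cells). UMIs were summed per tumour and class and tested with edgeR's quasi-likelihood test, with the tumour as a block, and p-values were adjusted (Benjamini-Hochberg) over all 10894 genes tested. Of these, 1967 (18.1%) were higher and 1828 (16.8%) lower in neutrophils at an adjusted p under 0.05, and the median log2 fold change over all genes was -0.35. Fold changes are neutrophils over macrophages on the TMM scale, which exceeds the ratio of CPM because a few abundant transcripts take up much of a neutrophil's UMIs. The gate genes have no call, but other genes can vary with them. A gene that passed the low-count filter only through neutrophils had to differ, so the counts for the identity, granule and maturation lists below are descriptions, as are the values of other genes that were near 0 CPM in the compared class.

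Identity genes that could be tested were above their macrophage level in both tumours, and several of them were nearly absent from macrophages. Others were not, such as Srgn, at 12563 and 11280 CPM in neutrophils against 1241 and 803 CPM in macrophages. Of 25 listed genes 24 were tested and all 24 were higher, with a median log2 fold change of 7.32. Retnlg, a resistin-like secreted protein of neutrophils, had 4059 CPM in replicate 1 neutrophils and 459 CPM in replicate 3 neutrophils, against 4.28 and 0.0870 CPM in macrophages (log2 fold change 11.27 ± 0.59 SE, adjusted p = 7.46e-07). Cxcr2, the chemokine receptor that draws neutrophils into tissue, had 757 and 858 CPM in neutrophils, against 2.77 and 0.746 CPM in macrophages (9.50 ± 0.41, adjusted p = 3.21e-07). The classes did not overlap for either gene, and the neutrophils of the tumours stood close together for Cxcr2 and far apart for Retnlg. Other members with log2 fold changes over 9 were Wfdc21 (11.18), G0s2 (10.00), an inhibitor of triglyceride breakdown, Lrg1 (10.00), and Asprv1 (9.95), a retroviral-like protease. Mrgpra2a (196 and 90.3 CPM in neutrophils), Mrgpra2b (195 and 233 CPM) and the stefin A genes Stfa2, Stfa2l1, Gm5483 and BC100530 belong to families of near-identical copies, so reads may have been split between them and their single-gene values are uncertain.

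Among granule genes, Mmp9, Lcn2 and Pglyrp1 were well detected, while Mpo and Elane, which are made in marrow progenitors, had no UMI. No UMI of Mpo or Elane, the primary granule enzymes myeloperoxidase and neutrophil elastase, was found in neutrophils of either tumour, which allows up to 2.54 CPM in replicate 1 and 22.6 CPM in replicate 3. The secondary granule genes Camp, the cathelicidin, and Ngp were near the limit, with 1 and 25 UMIs in replicate 1 and none in replicate 3. Mmp9, the gelatinase of the last granules to form, had 388 and 542 CPM in neutrophils, against 5.13 and 2.70 CPM in macrophages (7.35 ± 0.52, adjusted p = 4.29e-06). Lcn2, lipocalin 2, which binds the iron scavengers of bacteria, had 516 and 203 CPM in neutrophils, against 0.509 and 0.0124 CPM in macrophages. Pglyrp1, a peptidoglycan-binding granule protein, had 500.1 and 451 CPM in neutrophils, against 2.41 and 1.49 CPM in macrophages. Of 19 granule genes 10 were tested, 9 higher and 1 lower, with a median of 4.72. The lower gene was Lyz2, lysozyme, with 2241 and 4334 CPM in neutrophils against 10663 and 14671 CPM in macrophages (-1.54 ± 0.49, adjusted p = 0.0317). That call was lost once free RNA was subtracted (adjusted p = 0.484), a step that takes a larger part of the lower level.

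Ly6g, the antigen most used to sort mouse neutrophils, was sparse in the transcripts. Replicate 1 neutrophils held 115 UMIs (97.3 CPM) in 12.2% of cells, and replicate 3 neutrophils held none, which allows up to 22.6 CPM, while macrophages of both tumours had none. Prok2, a secreted prokineticin, followed the same order, with 344 UMIs in 20.2% of replicate 1 neutrophils and none in replicate 3. Neither gene passed the low-count filter.

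Maturation and ageing genes were higher as a group: 12 of 13 tested genes were higher and 0 lower, with a median of 2.15, and 10 stayed higher with free RNA subtracted. Cxcr4, which rises as neutrophils age and holds them in the marrow, had 338 and 692 CPM in neutrophils, against 202 and 137 CPM in macrophages (1.95 ± 0.38, adjusted p = 0.00317). Siglecf, known on a tumour-associated neutrophil state and on eosinophils, had 13.5 and 45.1 CPM in neutrophils, against 0.566 and 0.385 CPM in macrophages, from 16 and 6 UMIs in neutrophils. Transcripts of young (Cd24a) and aged (Cxcr4, Icam1) neutrophils were thus both above the macrophage level. Cd24a, a glycosylated surface protein, had 570.4 and 482 CPM in neutrophils against 5.28 and 3.52 CPM in macrophages, and Icam1, an adhesion ligand, 70.2 and 158 CPM against 53.9 and 103 CPM (0.97 ± 0.30, adjusted p = 0.0282), a call lost with free RNA subtracted (adjusted p = 0.0559).

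Chemoattractant receptors were mostly higher, with 10 of 14 tested genes higher and 3 lower (median 2.87). Of all genes tested 18.1% were higher and 16.8% lower, so the lower members were near the common share. The formyl peptide receptors, which sense bacterial and mitochondrial peptides, were higher: Fpr1 had 169 and 105 CPM in neutrophils against 1.90 and 0.659 CPM in macrophages (7.31 ± 0.32, adjusted p = 6.00e-07), and Fpr2 had 263 and 271 CPM against 6.15 and 6.47 CPM (5.94 ± 0.35, adjusted p = 1.37e-06). Ccrl2, a non-signalling receptor that presents chemerin and aids neutrophil recruitment, had 2887 and 6185 CPM in neutrophils, against 281 and 405 CPM in macrophages (4.10 ± 0.35, adjusted p = 1.42e-05). Ltb4r1, the leukotriene B4 receptor, and Ccr1, a receptor for Ccl3 and related chemokines, were higher by 3.59 and 3.08. The lower ones included Cx3cr1, the fractalkine receptor (39.8 and 60.2 CPM in neutrophils against 533 and 512 CPM in macrophages), and C3ar1. The C3ar1 call was lost with free RNA subtracted (adjusted p = 0.122).

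Inflammatory cytokines and mediators were higher in neutrophils, with 13 of 15 tested genes higher and 0 lower (median 3.97; 12 higher with free RNA subtracted). Il1b, the secreted interleukin 1, had 10117 and 12627 CPM in neutrophils, against 586 and 447 CPM in macrophages (4.90 ± 0.69, adjusted p = 4.04e-04). Its antagonists rose with it: the decoy receptor Il1r2 had 1632 and 2249.9 CPM in neutrophils against 61.6 and 28.0 CPM in macrophages (5.93 ± 0.39, adjusted p = 2.82e-06), and Il1rn, the receptor antagonist, 689 and 722 CPM against 57.9 and 52.9 CPM (4.17 ± 0.33, adjusted p = 8.07e-06). Both tumours gave similar neutrophil levels for these genes, and no class overlapped the other. Ptgs2, the inducible cyclooxygenase, had 494 and 587 CPM in neutrophils, against 21.5 and 40.6 CPM in macrophages (4.75 ± 0.47, adjusted p = 3.68e-05). Csf1, the growth factor of macrophages, had 131 and 188 CPM in neutrophils, against 2.53 and 3.14 CPM in macrophages (6.25 ± 0.25, adjusted p = 2.61e-07). Il23a, the p19 subunit of interleukin 23, was at 65.2 and 150.5 CPM in neutrophils, against 0.622 and 0.609 CPM in macrophages (7.75 ± 0.47, adjusted p = 1.42e-06). Tnf was closer, at 72.8 and 113 CPM in neutrophils against 44.9 and 40.7 CPM in macrophages (1.56 ± 0.26, adjusted p = 0.00104), and Tgfb1 at 198 and 166 CPM against 333 and 249 CPM did not pass the test (-0.14 ± 0.24, adjusted p = 0.675). Il6 had no UMI in neutrophils of either tumour.

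Chemokine genes went both ways. Of 20 tested, 5 were higher (Cxcl2, Cxcl3, Ccl3, Ccl4 and Ccl6) and 7 lower (Cxcl9, Cxcl16, Ccl2, Ccl5, Ccl7, Ccl8 and Ccl12), with a median of -1.11, and with free RNA subtracted 4 were higher and 5 lower. Cxcl2, a ligand of Cxcr2, had 29093 and 21077 CPM in neutrophils, against 1858 and 1444 CPM in macrophages (4.43 ± 0.73, adjusted p = 0.00109). Cxcl3, the neighbouring ligand of the same receptor, had 2645 CPM in replicate 1 neutrophils but 143 CPM in replicate 3 neutrophils, against 14.3 and 2.55 CPM in macrophages (7.57 ± 0.94, adjusted p = 1.76e-04). Neutrophils were above macrophages in both tumours for each gene, while their own levels were similar for Cxcl2 and far apart for Cxcl3. Ccl3 (2388 and 1099 CPM in neutrophils against 155 and 83.5 CPM in macrophages) and Ccl4 (1888 and 1016 CPM against 110.0 and 79.0 CPM) were the inflammatory CC chemokines among the higher members. The call of Ccl6 was lost with free RNA subtracted (adjusted p = 0.180). Cxcl1, a further Cxcr2 ligand, was at 125 and 158 CPM in neutrophils against 118 and 154 CPM in macrophages and did not pass the test (0.73 ± 0.48, adjusted p = 0.248). Cxcl9, which draws T cells through Cxcr3, had 3.39 and 45.1 CPM in neutrophils, against 111 and 238 CPM in macrophages (-3.31 ± 0.60, adjusted p = 0.00200). The monocyte attractants Ccl2, Ccl7, Ccl8 and Ccl12 were lower by 2.49 to 3.09 on the log2 scale, and Ccl2 had 29.6 and 67.7 CPM in neutrophils against 269.5 and 478 CPM in macrophages.

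**Figure D1:**
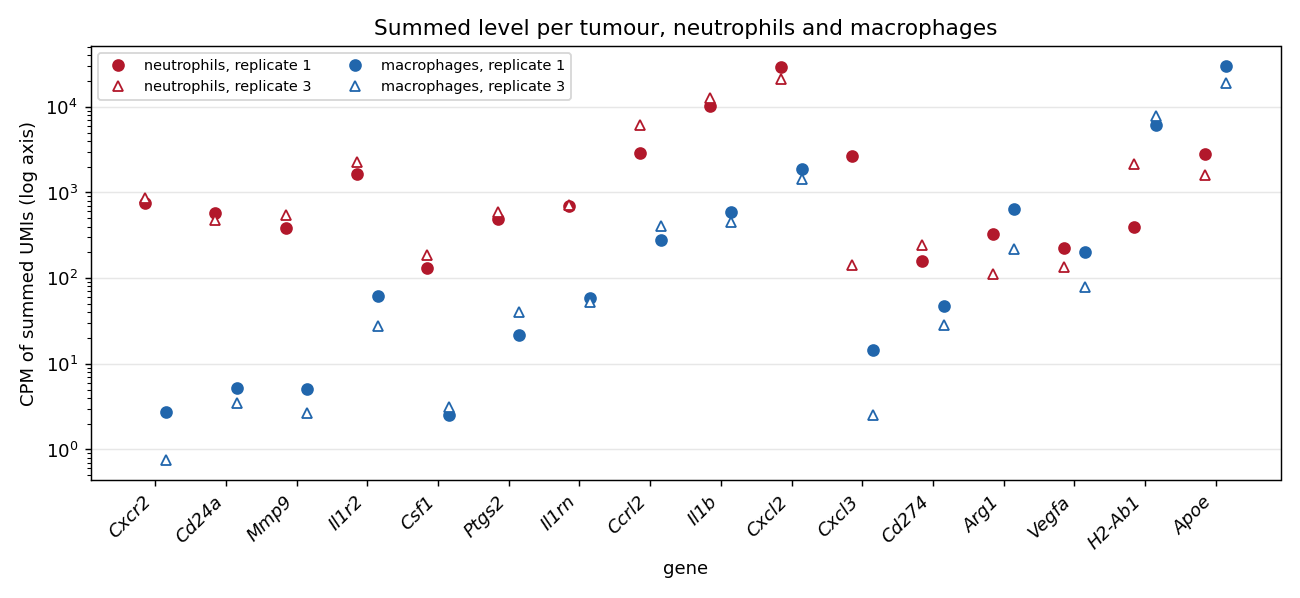
Summed level of 16 genes (x axis) in CPM (y axis, log) in neutrophils (red) and macrophages (blue), with filled circles for replicate 1 and open triangles for replicate 3. Neutrophils lie above macrophages in both tumours for Cxcl2 (29093 and 21077 against 1858 and 1444 CPM) and Il1b, their 2 points are far apart for Cxcl3 (2645 and 143 CPM), and they lie below macrophages for Apoe and H2-Ab1.

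The start regions of Cxcl2 and Cxcl3 are shown because neutrophils carried both transcripts far above macrophages while only Cxcl3 differed widely between tumours. The windows, built as those above, lie at chr5:90903649-90903948 (plus strand) for Cxcl2 and chr5:90785851-90786150 (plus strand) for Cxcl3. Capitals mark the NF-kappaB motif (GGG, any 3 bases, then TTCC), searched on both strands, and in Cxcl2 also a PU.1 match just after the start. Each window held 3 NF-kappaB matches, of which 2 overlap on opposite strands, between 97 and 69 bases before the start in Cxcl2 and between 73 and 41 bases before it in Cxcl3, whereas 5.56% of all windows held any.
Cxcl2: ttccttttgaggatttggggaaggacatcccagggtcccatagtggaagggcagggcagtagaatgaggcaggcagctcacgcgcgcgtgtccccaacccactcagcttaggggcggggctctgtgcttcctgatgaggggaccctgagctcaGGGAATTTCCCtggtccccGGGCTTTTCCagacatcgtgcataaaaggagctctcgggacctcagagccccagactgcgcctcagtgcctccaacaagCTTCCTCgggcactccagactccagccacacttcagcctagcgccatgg
Cxcl3: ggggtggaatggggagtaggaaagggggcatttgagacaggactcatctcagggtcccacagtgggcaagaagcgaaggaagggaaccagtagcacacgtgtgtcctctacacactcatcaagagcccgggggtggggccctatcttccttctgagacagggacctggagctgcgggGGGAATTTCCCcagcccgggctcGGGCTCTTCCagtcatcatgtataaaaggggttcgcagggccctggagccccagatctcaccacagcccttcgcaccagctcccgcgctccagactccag

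Feedback genes of NF-kappaB, the pathway that many of these cytokines depend on, were also higher, with 8 of 14 tested genes higher and 1 lower (median 1.52). Nfkbia, which encodes the inhibitor IkappaB-alpha, had 3072 and 4282 CPM in neutrophils, against 418 and 865 CPM in macrophages (3.06 ± 0.36, adjusted p = 1.15e-04). Tnfaip3, the deubiquitinase A20, had 258 and 429 CPM in neutrophils, against 50.1 and 94.0 CPM in macrophages (2.72 ± 0.29, adjusted p = 6.17e-05). The lower member was Cd83, a surface protein of activated antigen-presenting cells, at 14.4 and 22.6 CPM in neutrophils against 171 and 169.9 CPM in macrophages. Genes of dissociation stress, which enzyme digestion can induce, were higher for 4 of 12 and lower for 1 (median 0.64). Among these Egr1 had 626 and 248 CPM in neutrophils against 241 and 77.8 CPM in macrophages, Fos had 1008 and 1979 CPM against 1315 and 1630.5 CPM and did not pass the test (adjusted p = 0.340), and their part in the cytokine levels was not tested.

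Genes linked to restraint of T cells were mixed, with 8 of 15 tested genes higher and 1 lower (median 1.47). Acod1, which makes itaconate, had 620.3 and 662 CPM in neutrophils, against 3.88 and 1.54 CPM in macrophages (8.41 ± 0.65, adjusted p = 7.74e-06). Arg2, the mitochondrial arginase, had 228 and 248 CPM in neutrophils, against 6.41 and 1.38 CPM in macrophages (6.53 ± 0.42, adjusted p = 2.10e-06). Arg1, the cytosolic arginase often used as a mark of suppressive myeloid cells, had 325 and 113 CPM in neutrophils against 633 and 221 CPM in macrophages and did not pass the test (-0.22 ± 0.82, adjusted p = 0.860). Thus the arginase above the macrophage level was Arg2. Cd274, which encodes PD-L1, had 159 and 241 CPM in neutrophils, against 46.8 and 28.0 CPM in macrophages (2.85 ± 0.33, adjusted p = 1.15e-04). Wfdc17, a secreted protein with a whey acidic protein domain, had 7541 and 1392 CPM in neutrophils, against 435 and 178 CPM in macrophages (4.16 ± 0.45, adjusted p = 6.36e-05). Nos2, inducible nitric oxide synthase, had 1 UMI in neutrophils of each tumour. The lower member was Nectin2, a ligand of inhibitory receptors on T cells, with no UMI in neutrophils of either tumour against 13.3 and 10.7 CPM in macrophages.

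Respiratory burst genes differed by small margins, and the catalytic subunit of the oxidase was not among the higher ones. Of 10 tested, 7 were higher and 1 lower (median 1.09), and 4 stayed higher with free RNA subtracted. The cytosolic oxidase subunit Ncf4 had 628 and 1008 CPM in neutrophils, against 427 and 543 CPM in macrophages (1.17 ± 0.22, adjusted p = 0.00249), and Rac2, the GTPase that switches the oxidase on, had 671 and 948 CPM against 202 and 274 CPM (2.23 ± 0.23, adjusted p = 4.75e-05). Cybb, that subunit, was at 104 and 67.7 CPM in neutrophils against 295 and 346 CPM in macrophages (-1.02 ± 0.59, adjusted p = 0.196), and without the neutrophils over 10000 UMIs it was lower (-2.72, adjusted p = 0.0119). Hvcn1, the proton channel that balances the charge of the burst, was the lower member, at 7.62 and 15 CPM in neutrophils against 42.6 and 47.9 CPM in macrophages.

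Growth factor and matrix genes showed no common direction, with 5 of 13 tested genes higher and 2 lower (median 1.05). With free RNA subtracted 3 stayed higher, and without the neutrophils over 10000 UMIs the median was -0.38. Hbegf, an EGF receptor ligand, had 22.8 and 15 CPM in neutrophils, against 3.88 and 1.39 CPM in macrophages (3.45 ± 0.51, adjusted p = 5.36e-04). Vegfa, the angiogenic factor, was at 226 and 135 CPM in neutrophils against 201 and 77.9 CPM in macrophages and missed the threshold (1.05 ± 0.38, adjusted p = 0.0549). Pdgfb, platelet-derived growth factor B, was lower, at 5.08 and 22.6 CPM in neutrophils against 67.3 and 63.5 CPM in macrophages (-2.41 ± 0.49, adjusted p = 0.00378). Vcan, a matrix proteoglycan of monocytes, was called higher with all cells (3.16 ± 0.71, adjusted p = 0.00634) and not without the neutrophils over 10000 UMIs (0.27, adjusted p = 0.901).

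Interferon-stimulated genes were higher in part, with 10 of 22 tested genes higher and 1 lower (median 1.13). Isg15, a ubiquitin-like protein, had 595 and 564 CPM in neutrophils, against 71.5 and 91.4 CPM in macrophages (3.51 ± 0.54, adjusted p = 7.00e-04). Slfn4, a Schlafen family gene of myeloid cells, had 137 and 120.4 CPM in neutrophils, against 1.07 and 1.79 CPM in macrophages (7.14 ± 0.49, adjusted p = 3.40e-06), and its relative Slfn1 had 228 and 489 CPM against 7.92 and 13.2 CPM. The Isg15 and Slfn4 levels were alike in neutrophils of both tumours, and neither class overlapped the other. Irf7, a factor of the interferon response, did not pass the test (adjusted p = 0.407), and Zbp1, a nucleic acid sensor, was lower (10.2 and 15 CPM in neutrophils against 27.9 and 78.5 CPM in macrophages, adjusted p = 0.0410).

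MHC class II genes, which present antigen to CD4+ T cells, were lower in neutrophils: 8 of 10 tested genes were lower and 0 higher (median -2.24). Cd74, the invariant chain, had 1527 and 6532 CPM in neutrophils, against 18593 and 24811 CPM in macrophages (-2.32 ± 0.43, adjusted p = 0.00212). H2-Ab1, a class II beta chain, had 394 and 2137 CPM in neutrophils, against 6090.2 and 7850.2 CPM in macrophages (-2.40 ± 0.41, adjusted p = 0.00131). Without the neutrophils over 10000 UMIs the median was -4.06, and with free RNA subtracted 3 of the 8 calls remained, those of Cd74 and H2-Ab1 being lost (adjusted p = 0.149 and 0.0585). Free RNA held 10100 and 13980 CPM of Cd74, and after thinning to 1000 UMIs a Cd74 UMI was found in 32.1% and 55.6% of neutrophils. The subtraction takes a larger part of the lower level, so a call lost here need not mean a smaller difference. How far free RNA and cells with much RNA set the class II levels was not tested beyond these values. Class I genes mostly did not pass, with 0 of 13 higher and 3 lower (median -0.30), the lower ones being the immunoproteasome genes Psmb10 and Psme1 and the heavy chain H2-K1.

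The genes lowest against macrophages included known macrophage genes. By log2 fold change the 10 lowest with at least 100 CPM in macrophages were Mgl2 (-4.49), a lectin, Fcrls (-4.16), Gpr34 (-3.59), Selenop (-3.56), a selenium carrier, Tmem176a (-3.45), Tmem176b (-3.43), Folr2 (-3.37), a folate receptor, Cxcl9 (-3.31), Pmp22 (-3.20) and Ccl8 (-3.09), and each kept its call with free RNA subtracted. Lysosome and lipid genes were lower for 15 of 20 and higher for 1 (median -1.38), but with free RNA subtracted 4 were lower and 0 higher. Apoe, the lipid carrier, had 2846 and 1610.3 CPM in neutrophils, against 30217 and 19187 CPM in macrophages (-2.97 ± 0.35, adjusted p = 1.16e-04), and kept its call. Plin2, which coats lipid droplets, was the higher member, at 718 and 150.5 CPM in neutrophils against 244 and 147 CPM in macrophages, a call lost with free RNA subtracted (adjusted p = 0.0650). Cell cycle genes were lower for 9 of 15 and higher for 1 (median -2.73). Mki67, a mark of cycling cells, was at 2.54 and 0 CPM in neutrophils against 35 and 74.6 CPM in macrophages, a call lost with free RNA subtracted (adjusted p = 0.0542).

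Hypoxia and glycolysis genes were higher for 16 of 28 and lower for 0 (median 1.13), and glucose and lactate transporters and an oxygen sensor were among the higher members. Slc2a3, the high-affinity glucose transporter, had 267 and 67.7 CPM in neutrophils, against 1.81 and 1.70 CPM in macrophages (7.37 ± 0.53, adjusted p = 4.57e-06). Slc16a3, which exports lactate, had 963 and 451 CPM in neutrophils, against 124 and 75.5 CPM in macrophages (3.32 ± 0.36, adjusted p = 7.17e-05). Egln3, an oxygen-sensing prolyl hydroxylase that is itself induced by hypoxia, had 237 and 60.2 CPM in neutrophils, against 13.9 and 4.6 CPM in macrophages (4.71 ± 0.29, adjusted p = 1.73e-06). Gapdh, Ldha and Tpi1 did not pass the test (adjusted p = 0.398, 0.176 and 0.959). Neutrophils of replicate 1 stood above those of replicate 3 for each of the transport and sensing genes, and the classes did not overlap.

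Survival genes were higher for 12 of 19 and lower for 0 (median 1.89). Mcl1, on which neutrophil survival depends, had 4024 and 2822 CPM in neutrophils, against 904 and 786 CPM in macrophages (2.51 ± 0.32, adjusted p = 1.93e-04). The stress gene Gadd45a had 453 and 301 CPM in neutrophils, against 21.0 and 9.63 CPM in macrophages (5.23 ± 0.40, adjusted p = 6.83e-06), and the death receptor Fas 80.4 and 241 CPM against 6.50 and 6.14 CPM (4.82 ± 0.29, adjusted p = 1.37e-06). Genes for and against survival were therefore both above macrophages. The Bcl2a1 genes, near-identical copies whose reads may be split, did not pass the test.

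Transcription factor genes showed the C/EBP family going separate ways: 11 of 28 tested factors were higher and 5 lower (median 0.75). Cebpb had 7839 and 5418 CPM in neutrophils, against 1119.7 and 717 CPM in macrophages (3.37 ± 0.47, adjusted p = 3.95e-04), and Cebpd had 476 and 361 CPM against 42.2 and 37.9 CPM (3.95 ± 0.32, adjusted p = 8.75e-06). Cebpa, which acts in granulocyte progenitors, was lower, at 24.5 and 97.8 CPM in neutrophils against 243 and 231 CPM in macrophages (-2.01 ± 0.37, adjusted p = 0.00233). The macrophage factor Maf was lower by 2.13 on the log2 scale.

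Receptors for cytokines and microbes completed the pattern. Cytokine receptors were higher for 11 of 22 and lower for 2 (median 0.89), led by Il18rap (130.3 and 90.3 CPM in neutrophils against 1.70 and 1.23 CPM in macrophages), Il1r2 and Il1rap, and the lower ones were Csf1r, the receptor for Csf1 (130.3 and 226 CPM against 825 and 713 CPM, -1.72 ± 0.41, adjusted p = 0.00907, and 0.176 with free RNA subtracted), and Tgfbr2. Fc and pattern-recognition receptors were higher for 10 of 22 and lower for 3 (median 1.15), of which 1 stayed lower with free RNA subtracted. Clec4e, the receptor Mincle, had 1668 and 1099 CPM in neutrophils, against 24.5 and 27.2 CPM in macrophages (6.26 ± 0.51, adjusted p = 9.78e-06), and Cd14, the lipopolysaccharide co-receptor, 6939 and 7479.7 CPM against 995 and 853 CPM (3.44 ± 0.52, adjusted p = 6.41e-04). Adhesion genes were higher for 11 of 14 and lower for 1 (median 1.78), with the integrin Itgal at 163 and 188 CPM in neutrophils against 30.2 and 16.6 CPM in macrophages and Vcam1 the lower one. Of the inflammasome and extracellular trap genes 4 of 11 were higher and 2 lower (median -0.07). Nlrp3, an inflammasome sensor, was at 617 and 534 CPM in neutrophils against 105 and 81.2 CPM in macrophages (3.14 ± 0.44, adjusted p = 4.03e-04), while Padi4, the enzyme of extracellular traps, had 2 and 0 UMIs in neutrophils. Leukotriene and prostaglandin genes were higher for 3 of 10 and lower for 3 (median 0.03), with Alox5ap, the partner of 5-lipoxygenase, among the higher and Ptgs1 and Hpgds among the lower, but with free RNA subtracted 1 was higher and 1 lower.

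**Figure D2:**
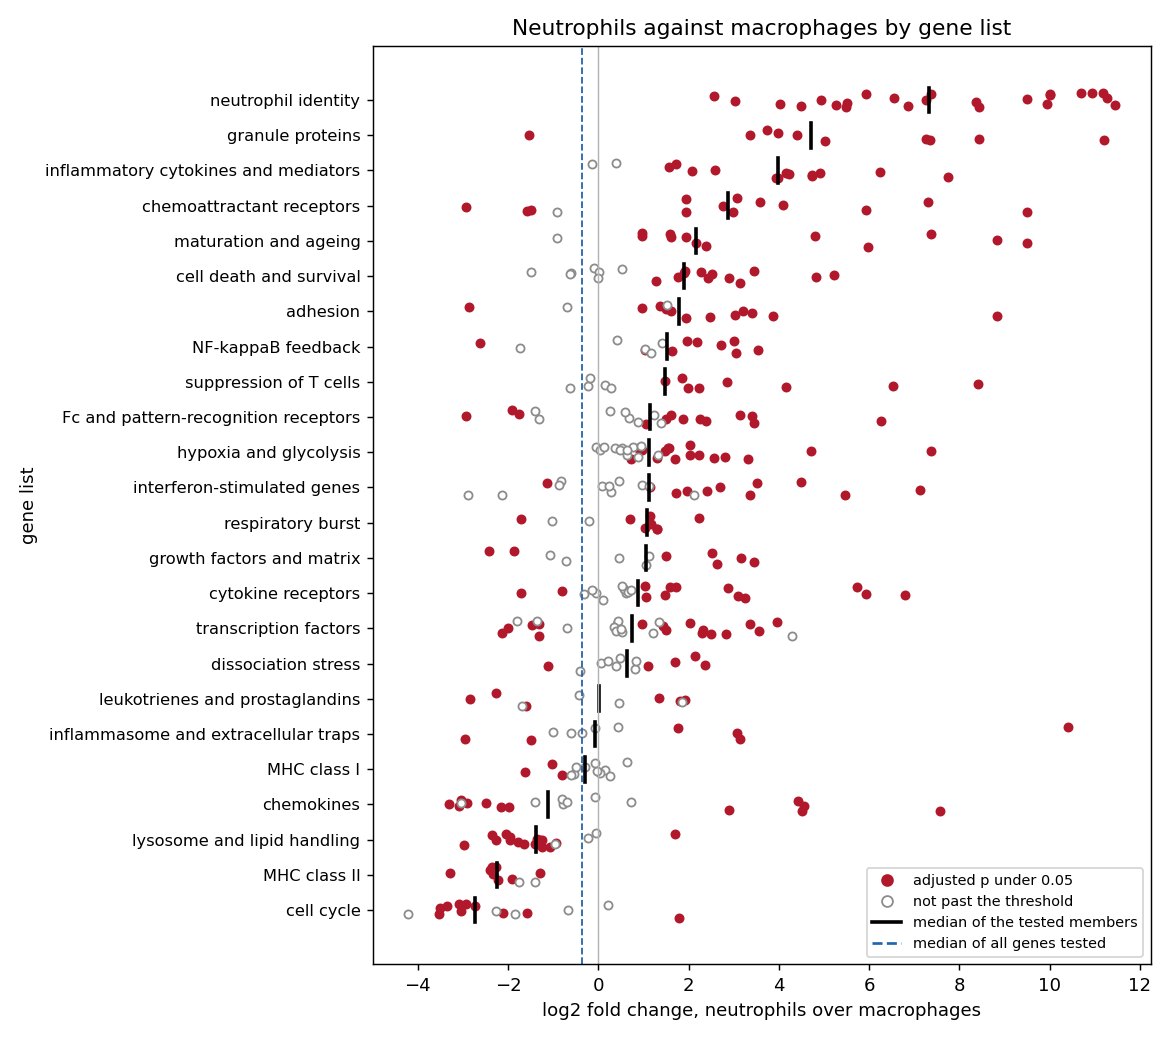
Log2 fold change of neutrophils over macrophages (x axis) for the tested genes of 24 lists (y axis), filled red where the adjusted p was under 0.05 and open otherwise, with a black bar at each list's median and a dashed line at the median of all genes tested (-0.35). The identity list has a median of 7.32, the cytokine list 3.97, MHC class II -2.24 and the cell cycle list -2.73.

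Against monocytes, the other recruited myeloid class (75 and 470 cells gated on Ly6c2 and Plac8), neutrophils differed in 1526 genes that were higher (14.0%) and 1258 that were lower (11.5%) of 10894. The monocyte gate also required S100a8 plus S100a9 under 0.5%, so monocytes rich in these transcripts were left out of the comparison. Retnlg had 4059 and 459 CPM in neutrophils, against 2.01 and 0 CPM in monocytes (12.58 ± 0.74, adjusted p = 5.73e-06). A handful of genes had no UMI in monocytes of either tumour, so a floor of 3 UMIs in each library gives a lower bound: Il1f9, an interleukin 36 cytokine, was at least 94.2-fold higher in replicate 1 neutrophils and at least 329-fold higher in replicate 3 neutrophils. Nlrp12, a regulator of inflammation, was at least 16.0-fold and 164-fold higher, a call lost with DESeq2 (adjusted p = 0.0940). Identity genes were higher for 22 of 24 (median 5.96). The exceptions were Slpi, a secreted protease inhibitor, at 383 and 211 CPM in neutrophils against 236 and 521 CPM in monocytes (0.68 ± 0.57, adjusted p = 0.415), and Cd177, a neutrophil surface protein, at 32.2 and 22.6 CPM against 37.2 and 16.2 CPM (0.94 ± 0.58, adjusted p = 0.265). Both were far above macrophages, so these transcripts stood apart from macrophages and overlapped with monocytes.

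Granule genes also came closer to monocytes, with 6 of 10 higher and 0 lower (median 3.09). Mmp8, neutrophil collagenase, was at 82.1 and 0 CPM in neutrophils against 71.4 and 14.7 CPM in monocytes (adjusted p = 0.234), whereas Mmp9, which had 388 and 542 CPM in neutrophils, had 0 and 1.79 CPM in monocytes (8.68 ± 0.68, adjusted p = 2.13e-05). Adhesion genes were higher for 7 of 14 and lower for 0. Ccr2, the receptor that takes monocytes out of the marrow, was lower, at 53.3 and 211 CPM in neutrophils against 830.2 and 620.1 CPM in monocytes (-2.31 ± 0.50, adjusted p = 0.00730).

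Inflammatory genes also stood above monocytes. Cytokines and mediators were higher for 10 of 15 and lower for 1, Tgfb1 (median 3.29), chemokine genes were higher for 8 and lower for 6 of 20 (median -0.72), and chemoattractant receptors were higher for 9 of 14 and lower for 2 (median 2.12). Cxcl3 had 2645 and 143 CPM in neutrophils, against 2.01 and 3.85 CPM in monocytes (7.77 ± 1.02, adjusted p = 4.63e-04). Ccl2 was lower, at 29.6 and 67.7 CPM in neutrophils against 663 and 617 CPM in monocytes (-3.31 ± 0.52, adjusted p = 0.00137). Osm, oncostatin M, which was called above macrophages (adjusted p = 0.0182, and 0.147 with free RNA subtracted), was at 388 and 241 CPM in neutrophils against 387 and 220.3 CPM in monocytes and did not pass the test (0.78 ± 0.57, adjusted p = 0.346). Hypoxia and glycolysis genes were higher for 17 of 28 and lower for 0 (median 1.36), survival genes higher for 13 of 19 and lower for 2, and MHC class II genes higher for 0 of 10 and lower for 8 (median -1.71), of which 2 stayed lower with free RNA subtracted. Interferon-stimulated genes were higher for 5 of 22 and lower for 4 (median 0.50), with Bst2, tetherin, at 39.8 and 37.6 CPM in neutrophils against 342 and 1651 CPM in monocytes among the lower ones.

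The monocyte gate also took in cells with Siglech, a gene of plasmacytoid dendritic cells: 12.0% of its cells in replicate 1 and 32.6% in replicate 3 held a Siglech UMI, against 0.284% and 2.78% of neutrophils. Of the 10 genes lowest against monocytes, Ms4a4c (-5.37), Ass1 (-3.70), Ly6a (-3.52), Rnase6 (-3.50), Cxcl9 (-3.35) and Ccl2 (-3.31) were measured with those cells in the gate, and Cd8b1, Klk1, Atp1b1 and Cox6a2 changed sign once they were left out. With those cells out, Rnase6 (-0.76, adjusted p = 0.387) and Bst2 (-1.18, adjusted p = 0.0957) also lost their calls, granule genes were higher for 6 of 10 and lower for 2, and interferon-stimulated genes were higher for 4 and lower for 4 with a median of -0.01. Over all genes 1524 were then higher and 1255 lower.

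Neutrophils varied most among themselves in the genes that mark them and in chemokines. Each cell was thinned to 1000 UMIs, so depth was equal, and genes were ranked by residual variance in replicate 1 over 1989 genes. S100a8 ranked first, with a median of 55 UMIs per 1000 (10th to 90th percentile 10.1 to 132.9), S100a9 followed, and Fth1, the ferritin heavy chain, Cxcl2, Retnlg, Cxcl3, Wfdc17, Ccl3, Ccl4, Gm5483, Il1b, Ftl1, Ifitm1, mt-Co3 and Malat1 completed the 15. S100a8 and S100a9 set the gate, so their spread is cut at its lower end. Cxcl2 was broad, with a median of 28 UMIs per 1000 (4 to 65) and at least 1 UMI in 97.2% of replicate 1 and 91.7% of replicate 3 neutrophils. Il1b was found in 94.3% and 100% of thinned neutrophils, with a median of 11 UMIs per 1000 in replicate 1.

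Retnlg and Cxcl3 were instead found in about as many cells as not in replicate 1 and in a minority in replicate 3, and a cell with no UMI may still express the gene. Retnlg was detected in 48.0% of replicate 1 and 16.7% of replicate 3 neutrophils after thinning, against 0.291% and 0% of T cells, and its 90th percentile in replicate 1 was 11 UMIs per 1000 with a median of 0. Cxcl3 was detected in 46.6% and 11.1% of thinned neutrophils, also with a median of 0. Before thinning the shares were 58.2% and 25% for Retnlg and 56.8% and 22.2% for Cxcl3. Ccl4 (35.2% and 38.9% after thinning) and Gm5483 (36.4% and 11.1%) also had a median of 0 in replicate 1. Cxcr2 was detected in 52.8% of neutrophils of each tumour after thinning (80.1% and 91.7% before). Cd274 was detected in 11.6% and 30.6% of thinned neutrophils, against 4.36% and 3.85% of T cells and 4.39% and 3.27% of macrophages, and Arg1 in 3.12% and 0%.

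Correlations across cells describe which genes went together, with cells of a library sharing their preparation and depth held equal by thinning. Retnlg went with the gate genes S100a8 (Pearson r = 0.48 over 352 cells of replicate 1 and 0.36 over 36 cells of replicate 3) and S100a9 (0.45 and 0.48). Its other partners in replicate 1 did not repeat in replicate 3, as for Wfdc21 (0.50 and 0.04), Lcn2 (0.39 and 0.07) and Wfdc17 (0.30 and -0.30). Isg15 went with Rsad2, both interferon-stimulated (0.46 and 0.60), and Cxcl2 with Ccl3 (0.33 and 0.44). Retnlg and Cxcl3 did not go together (0.00 and -0.14), nor did Retnlg and Cxcr2 (-0.05 and -0.12). Il1b and Hmox1, heme oxygenase 1, were weakly opposed (-0.26 and -0.21).

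**Figure D3:**
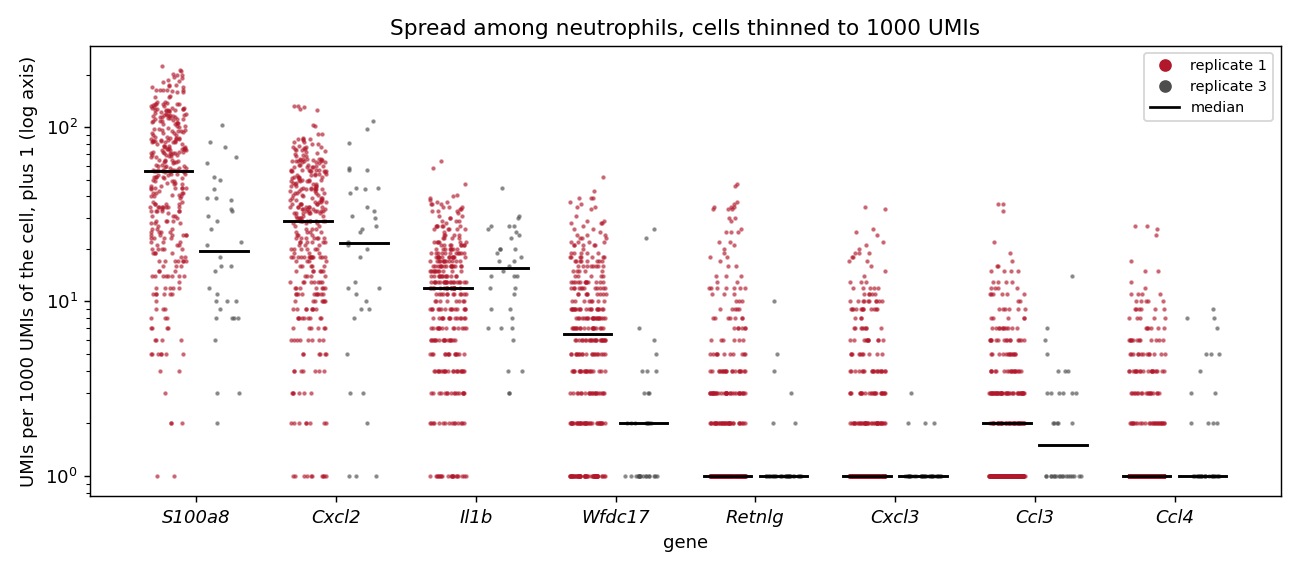
UMIs per 1000 UMIs of each cell, plus 1 (y axis, log), for 8 of the most variable genes (x axis), with 1 point per neutrophil, red for replicate 1 (352 cells) and grey for replicate 3 (36 cells), and a bar at the median. Cxcl2 and Il1b spread around a high median, while for Retnlg and Cxcl3 the median cell of both tumours holds 0 UMIs.

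Between the tumours, neutrophils of replicate 1 carried more transcripts of hypoxia and of Retnlg and Cxcl3, and those of replicate 3 more of MHC class I. The labels give these tumours as replicates of 1 group, so the values are set side by side with no test, and genes named here were chosen after their values were seen. Among 3828 genes with at least 4 UMIs in neutrophils of both, 135 were over 2-fold higher in replicate 1 and 1089 in replicate 3, with a median log2 ratio (replicate 1 over replicate 3) of -0.52, so a ratio near that median is ordinary. In macrophages of the same tumours the counts were 132 and 62, with a median of -0.01. The minimum of 4 UMIs stood for 3.39 CPM in replicate 1 neutrophils but 30.1 CPM in replicate 3 neutrophils. Genes such as Prok2 (344 UMIs in replicate 1 and 0 in replicate 3) and Hk2 (336 and 3) were thus left out. The neutrophil counts and medians, here and for the lists below, therefore lean towards replicate 3.

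Of the listed genes higher in replicate 1, Cxcl3 differed most, 18.5-fold, at 2645 CPM (95% Poisson interval 2553 to 2739) in replicate 1 against 143 CPM (86.1 to 223) in replicate 3. Retnlg differed 8.84-fold, Hilpda, a hypoxia-induced inhibitor of lipolysis, 7.42-fold (503 against 67.7 CPM), Wfdc17 5.42-fold, Hmox1 5.06-fold (609 against 120.4 CPM) and Plin2 4.77-fold. With the neutrophils over 10000 UMIs left out, Hmox1 narrowed to 372 against 170 CPM, beside 234 against 98.2 CPM in macrophages. Hilpda (506 against 74.5 CPM) and Plin2 (734 against 170 CPM) changed little. Of 25 hypoxia and glycolysis genes 8 were over 2-fold higher in replicate 1 neutrophils and 0 in replicate 3 (median log2 ratio 0.60), against 6 and 0 in macrophages (median 0.17). Without the neutrophils over 10000 UMIs the counts were 8 and 2. Hif1a, which encodes the hypoxia-inducible factor itself, was at 545 CPM in replicate 1 and 188 CPM in replicate 3 neutrophils. Bnip3, a mitophagy gene it induces, was at 228 and 52.7 CPM. Macrophages differed in the same direction for Hilpda, at 265 CPM in replicate 1 and 99.1 CPM in replicate 3.

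On the other side, Gbp2, a guanylate-binding protein induced by interferon-gamma, was at 72.8 CPM in replicate 1 and 768 CPM in replicate 3 neutrophils, against 85.5 and 129 CPM in macrophages. Ifi47, an interferon-induced GTPase, was at 12.7 and 324 CPM in neutrophils and differed most of the listed genes, 25.5-fold, while Isg15 (595 and 564 CPM) hardly differed. Over the 15 interferon-stimulated genes with enough UMIs, 7 were over 2-fold higher in replicate 3 neutrophils and the median log2 ratio was -0.79, beside -0.52 for all genes. MHC class I genes were over 2-fold higher in replicate 3 neutrophils for 10 of 13 (median log2 ratio -1.61, against -0.59 in macrophages, where 0 of 13 passed 2-fold). H2-K1 was at 482 and 1640.4 CPM in neutrophils and Psmb9, an immunoproteasome subunit, at 55.9 and 248 CPM. Without the cells over 10000 UMIs the class I median was -1.78, again with 10 of 13 over 2-fold, and the interferon median -1.52, with 10 of 15 over 2-fold. The matrix genes Fn1 (194 and 1129 CPM) and Spp1 (255 and 1429.7 CPM) were high in replicate 3 through 2 cells, since without the cells over 10000 UMIs they were at 28.6 and 42.5 CPM and at 234 and 223 CPM. MHC class II followed in part, its median log2 ratio being -1.99 with and -0.81 without those cells.

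**Figure D4:**
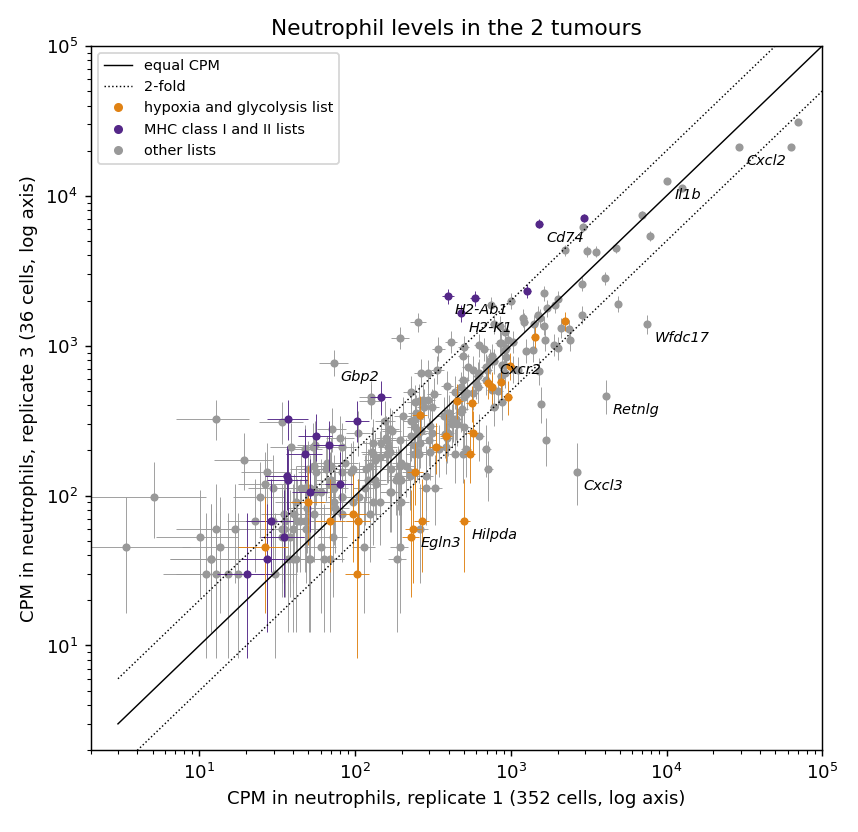
Level of each listed gene in replicate 1 neutrophils (x axis, CPM, log) and replicate 3 neutrophils (y axis, CPM, log), with exact Poisson 95% intervals, a solid line at equal levels and dotted lines at 2-fold. Hypoxia and glycolysis genes (orange) fall mostly on or below the line of equal levels, with Hilpda at 503 and 67.7 CPM, MHC genes (purple) lie above it, with H2-K1 at 482 and 1640.4 CPM, and Cxcl3 (2645 and 143 CPM) lies farthest below.

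Code ZC1 took a larger share of the spatial code UMIs in neutrophils than in macrophages of both tumours. Codes are given as shares of code UMIs and without a test, since 2 tumours allow none and no label ties a code to a region. In replicate 1 neutrophils ZC1 took 44.6%, ZC2 26.2% and ZC5 29.2% of code UMIs, against 35.4%, 25.5% and 39.0% in macrophages. In replicate 3 neutrophils ZC1 took 22.2%, ZC5 27.5% and ZC6 50.4%, against 8.37%, 26.6% and 65.0% in macrophages. The share of the median cell was lower, with ZC1 at 40.6% in replicate 1 and 11.6% in replicate 3 neutrophils, against 31.2% and 7.44% in macrophages. ZC1 was also the largest code of 200 of 352 neutrophils in replicate 1 (56.8%, 51.5% to 62.1%), against 29.3% of macrophages, and of 6 of 36 in replicate 3 (16.7%, 6.37% to 32.8%), against 0.521% of macrophages.

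Neutrophils were not alone in this. In replicate 1 the ZC1 share of code UMIs was higher still in monocytes (56.9%), NK cells (56.5%) and T cells (46.9%), whereas in replicate 3 it was 13.5%, 16.9% and 12.4% in those classes, under the neutrophil share. Barcodes with under 50 UMIs, a measure of free code, had ZC1, ZC2 and ZC5 shares of 42.2%, 27.9% and 30.0% in replicate 1, close to those of neutrophils, and a ZC1 share of 12.9% in replicate 3, and neutrophils hold less RNA than the other classes, so the part of free code in these shares was not tested. In replicate 3, leaving out neutrophils with a Csf1r or Ly6c2 UMI brought the ZC1 share to 16.1%, under that of NK cells, and the cells led by ZC1 to 2 of 24.

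Cells of replicate 1 above the median ZC1 share (176) carried less Cxcl2 and Cxcl3 and more Arg1 than cells below it (176). Cxcl2 was at 24848 CPM above and 33732 CPM below, Cxcl3 at 2261 and 3064 CPM, Ptgs2 at 405 and 592 CPM and Il1r2 at 1455 and 1826 CPM, while Arg1 was at 441 and 198 CPM and Mmp9 at 442 and 329 CPM. In replicate 3, with 18 cells on each side, Il1r2 (1948 above and 2782 CPM below) and Arg1 (177 and 0 CPM) had the same order, and Retnlg (224 and 872 CPM) and Mmp9 (295 and 976 CPM) the opposite order to replicate 1, where Retnlg was at 4424 and 3659 CPM. The replicate 3 cells above the median also held more Csf1r (319 above and 62.3 CPM below) and less S100a8 (12370 and 36347 CPM), and Arg1 rests on 15 UMIs there. With the neutrophils over 10000 UMIs left out, no Arg1 UMI remained in 1 or both tumours, so no ratio between the tumours could be formed. All Arg1 UMIs of such a tumour came from those cells, and the order of Arg1 was not tested without them. In replicate 3 the neutrophils over 10000 UMIs were 2 cells, both with Csf1r UMIs. The part of other cells in these values was not tested. Cells of a tumour are not replicates, so these are values of those cells.

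**Figure D5:**
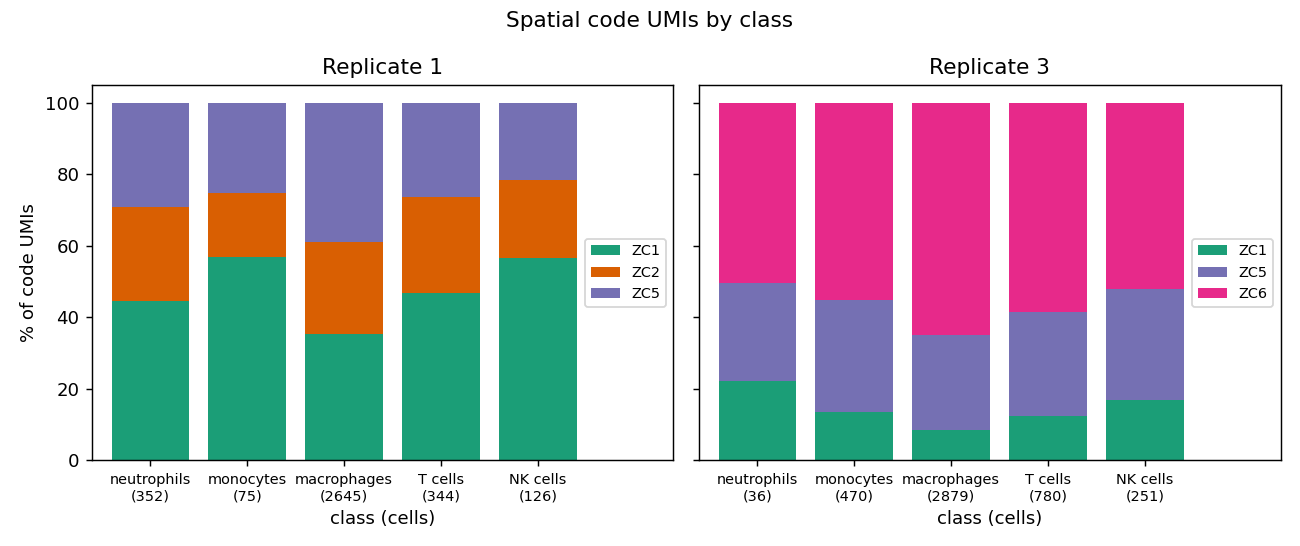
Share of code UMIs (y axis, %) carried by each spatial code (stacked colours) in 5 classes (x axis, cell numbers in brackets) for replicate 1 (left) and replicate 3 (right). ZC1 takes 44.6% in replicate 1 neutrophils against 35.4% in macrophages, and 22.2% in replicate 3 neutrophils against 8.37% in macrophages.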

How the data were processed

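Single-cell 3′ RNA libraries of 2 mosaic tumours (replicate 1 and replicate 3 of 1 group) were analysed from the matrices of UMI counts the authors deposited, which were made with Cell Ranger 4.0 on the mm10 genome, per the submitters' processing notes. Each matrix lists 6794880 barcodes, 31055 genes and 3 spatial codes, with 89040909 gene UMIs in replicate 1 and 170328781 in replicate 3.

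The filter kept barcodes of 1000 or more gene UMIs and 500 or more genes whose mitochondrial share was 10% or less, and cells were then gated by their transcripts. Monocytes needed at least 2 Ly6c2 and 1 Plac8 UMIs, macrophages at least 0.5% C1q, T cells at least 2 Cd3e UMIs and NK cells at least 1 Ncr1 UMI. All of these classes also needed S100a8 plus S100a9 under 0.5%. Monocytes and macrophages held no Cd3e or Ncr1 UMI, T cells no Ncr1 UMI and NK cells no Cd3e UMI. C1q was under 0.2% in monocytes, T cells and NK cells. UMIs were summed per tumour and class, the 5 classes entered 1 fit (edgeR 4.0.16 in R 4.3.3, TMM, filterByExpr, tumour as block), and p-values were Benjamini-Hochberg adjusted across the tested genes, with calls under 0.05. Gate genes received no call. The replicate number pairs the classes, since they come from the same tumour, and the tumour differences of the classes correlated (r between 0.183 and 0.602). With 2 tumours as a block, p-values measure only how far class differences varied between these samples, not the difference the classes of a tumour share. That spread was estimated over all 5 classes, and the labels do not describe the tumours as separate animals.

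On simulated neutrophils and monocytes with 4-fold changes the fit called 167 of 199 changed genes in the right direction and 2 of the unchanged ones, over 10634 genes. The simulation gave the classes equal means elsewhere, raised as many genes as it lowered and drew counts with the spread the fit estimates. The measured classes differ in far more genes, so these counts do not give the error rate of the calls above. CPM intervals are exact Poisson and shares exact binomial (95%), and both cover counting error only, as does a floor of 3 counts for a gene with none. Free RNA was subtracted as an assumed 10% of each library in the proportions of barcodes with under 50 UMIs. This takes a larger part of the lower level. For a gene lower in neutrophils, a call lost by it need not mean a smaller difference. Other alternatives were DESeq2 1.42.0, its size factors, no filter, no block and stricter gates. Summaries used Python 3.11.15, numpy 2.4.6, pandas 2.3.3 and scipy 1.17.1.

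Named genes are the 10 highest and 10 lowest called genes of each comparison with at least 100 CPM in the higher class, up to 4 called members of each list with the largest change, and 20 state genes. Values of some named genes are not reported here. Further list members are examples chosen after their values were seen. The gate, the lists and the genes were all chosen with earlier results of these data known.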

Additional observations from a re-analysis of the deposited data

How the results depend on the processing

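Depth limits replicate 3 most, where 36 neutrophils give a floor of 22.6 CPM. Most calls kept their direction: over the alternatives, values of named genes against macrophages kept direction and side of the threshold in 1429 cases, passed it newly in 5 and lost it in 35, and against monocytes the counts were 1520, 3 and 69. The cause of the changes below was not tested. Without the replicate block, genes higher and lower numbered 1611 and 1302 against macrophages and 1196 and 812 against monocytes, and Cxcl9, Thbs1, H2-K1, Psme1, Alox5ap, Hpgds, Nlrc4, Birc5 and Cdk1 lost their calls against macrophages. With no filter on low counts, 2790 genes were lower against macrophages. Genes lower against monocytes numbered 2190 without neutrophils holding a Csf1r or Ly6c2 UMI, 2224 without those over 10000 UMIs and 2209 without either, the last chosen after seeing the data. Leaving out Siglech cells, also chosen after seeing the data, reversed Cd8b1 (4.18), Klk1 (6.04), Atp1b1 (6.86) and Cox6a2 (6.43). DESeq2 called 2114 higher and 1595 lower against macrophages and 1614 and 1153 against monocytes.

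The neutrophil share of replicate 1 was 10.5% at a mitochondrial limit of 5%, 6.02% at a minimum of 2000 UMIs, 5.85% with at least 2 Csf3r UMIs, 5.25% without Csf1r or Ly6c2 cells and 10.7% with no limit on Cd3e, Ncr1 and C1q, and that of replicate 3 was 0.356% without Csf1r or Ly6c2 cells. A single tumour leaves no residual degrees of freedom, so leaving out a replicate gave values with no test, and Hspa1b against monocytes then changed sign (-0.10 without replicate 1, 3.14 without replicate 3). Leaving out cells with under 10 code UMIs removed none, and subtracting free code was not tried.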
